A study of Mus musculus with 10 samples.

Results

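The embryonic globins *Hbb-y*, *Hbb-bh1* and *Hba-x* and the erythroid heme enzyme gene *Alas2* were examined in distal tip samples of the developing mouse lung. They were taken by gene symbol as the probe sets that name 1 of these 4 genes alone, and they are 4 of 17813 genes measured. Each is represented by 1 probe set. They were chosen by their log2 signals in this same comparison of stages, so their stage values are given as a description with no test. RNA had been hybridised to Affymetrix mouse microarrays, 5 arrays at E11.5 and 5 at E17.5. The E17.5 sort also held a few of the tip cells' immediate progeny. All embryos came from matings of *Id2-CreER* mice, in which the tip gene *Id2* drives an inducible Cre, with *Rosa26R-fGFP* reporter mice. The E11.5 tips were dissected by hand after dispase (16 U/ml, 5 min). The E17.5 sample was GFP+ cells sorted by flow cytometry from lungs dissociated with trypsin, after tamoxifen at E16.5 (150 μg per gram of the mother's weight), which marks cells that express *Id2* and their descendants. The groups therefore differ in age, dissection, enzyme, flow sorting of GFP+ cells and tamoxifen, and these cannot be told apart. The labels call the arrays biological replicates without naming litters, so the p-values measure the spread between these samples.

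Hemoglobin pairs alpha-like with beta-like globin chains, each holding a heme group. In the mouse, primitive red cells from the yolk sac enter the circulation early and carry the embryonic chains, zeta from *Hba-x* and the beta-like chains from *Hbb-y* (epsilon y) and *Hbb-bh1* (beta h1). Definitive red cells from the fetal liver later take their place and carry adult chains, a change known as globin switching. *Alas2* encodes the erythroid form of 5-aminolevulinate synthase, the enzyme that starts heme synthesis, and its relative *Alas1* serves other cells. A lung holds blood as well as epithelium.

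The promoters of the members are shown because the globins and *Alas2* are textbook targets of GATA1 and KLF1, the main transcription factors of red cells. The RefSeq promoter table (GRCm38.p6) held 3 of the 4, and *Hbb-bh1* was not listed. The 250 bases before the start are printed 5′ to 3′ in the direction of the gene. Capitals mark matches, on either strand, to GATAA (GATA factors), CACCC (KLF factors), CCAAT and TATAA. *Hbb-y* lies at chr7:103853208-103853457 on the minus strand, *Hba-x* at chr11:32276350-32276599 on the plus strand and *Alas2* at chrX:150547167-150547416 on the plus strand.
Hbb-y: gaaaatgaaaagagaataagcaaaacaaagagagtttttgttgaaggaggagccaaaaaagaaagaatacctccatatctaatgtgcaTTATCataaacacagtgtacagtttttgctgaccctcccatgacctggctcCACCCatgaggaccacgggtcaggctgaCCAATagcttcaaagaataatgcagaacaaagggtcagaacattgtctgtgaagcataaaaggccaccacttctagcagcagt
Hba-x: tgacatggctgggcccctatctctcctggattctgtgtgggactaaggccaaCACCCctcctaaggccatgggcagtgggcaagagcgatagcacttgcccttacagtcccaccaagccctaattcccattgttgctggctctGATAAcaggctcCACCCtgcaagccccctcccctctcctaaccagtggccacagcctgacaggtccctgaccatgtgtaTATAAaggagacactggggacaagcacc
Alas2: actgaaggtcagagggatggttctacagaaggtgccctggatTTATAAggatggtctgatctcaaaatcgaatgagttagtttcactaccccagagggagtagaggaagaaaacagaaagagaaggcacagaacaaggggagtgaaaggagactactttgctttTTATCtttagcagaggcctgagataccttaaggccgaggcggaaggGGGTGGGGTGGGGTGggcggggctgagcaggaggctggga

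All 3 windows held both GATAA and CACCC, as did 10.1% of 32851 promoter windows of that length. GATAA was in 22.6% of windows and CACCC in 52.0%. In *Hba-x* GATAA began 107 bases before the start, with CACCC at 95 and 198 bases. In *Hbb-y* GATAA lay on the reverse strand at 162 bases, CACCC at 111 and CCAAT, found in 33.8% of windows, at 83. *Alas2* had GATAA on the reverse strand at 86 bases and 3 copies of CACCC in a row on the reverse strand, at 40, 35 and 30 bases. TATAA, found in 22.8% of windows, stood 28 bases before the start of *Hba-x*. In *Alas2* it was read on both strands of the same stretch, at 207 and 208 bases. No other motif matches overlapped. The adult globin genes *Hba-a1*, *Hba-a2*, *Hbb-bs* and *Hbb-bt* each held 1 match to GATAA and 1 to 3 to CACCC in the same window. Such matches describe the letters and were not tested as binding sites.

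The embryonic globins were bright in E11.5 tips and dim in the sorted E17.5 cells. *Hbb-y* had log2 signals of 13.13, 11.53, 13.25, 12.16 and 13.06 on E11.5 replicates 1 to 5, and 6.72, 4.54, 3.61, 5.50 and 3.56 on E17.5 replicates 1 to 5. The lowest E11.5 array lay 4.81 above the highest E17.5 array. The difference of the means was -7.84 on the log2 scale, or 229-fold lower at E17.5.

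*Hba-x*, the embryonic alpha-like gene, stood at 12.52, 10.65, 12.68, 11.51 and 12.65 on E11.5 replicates 1 to 5 and at 5.65, 5.09, 5.71, 4.65 and 5.30 on E17.5 replicates 1 to 5. The stages lay 4.94 apart at their nearest arrays, and the means differed by -6.72 on the log2 scale (106-fold lower at E17.5). *Hbb-bh1*, which neighbours *Hbb-y* in the beta-globin cluster, stood at 10.48, 9.05, 11.16, 9.51 and 11.70 at E11.5 and at 4.61, 3.98, 4.33, 4.25 and 4.52 at E17.5. Its stages lay 4.44 apart and its means differed by -6.04 (66.0-fold lower). Among all genes, 26.3% had every E17.5 array below every E11.5 array, and 31.5% were called lower at E17.5 in limma (Benjamini-Hochberg adjusted p under 0.05). For the 3 embryonic globins this is a description, since the choice of genes already held it. In such bulk samples, fewer cells that carry the RNA and less of it per cell cannot be told apart.

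*Alas2* went the other way, with smaller and overlapping values. Its log2 signals were 6.51, 5.21, 6.95, 5.53 and 5.98 on E11.5 replicates 1 to 5 and 8.17, 7.09, 7.74, 6.56 and 8.03 on E17.5 replicates 1 to 5. The mean was 1.48 higher at E17.5, which is 2.79-fold. E17.5 replicate 4, at 6.56, lay below E11.5 replicate 3, at 6.95.

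**Figure D1:**
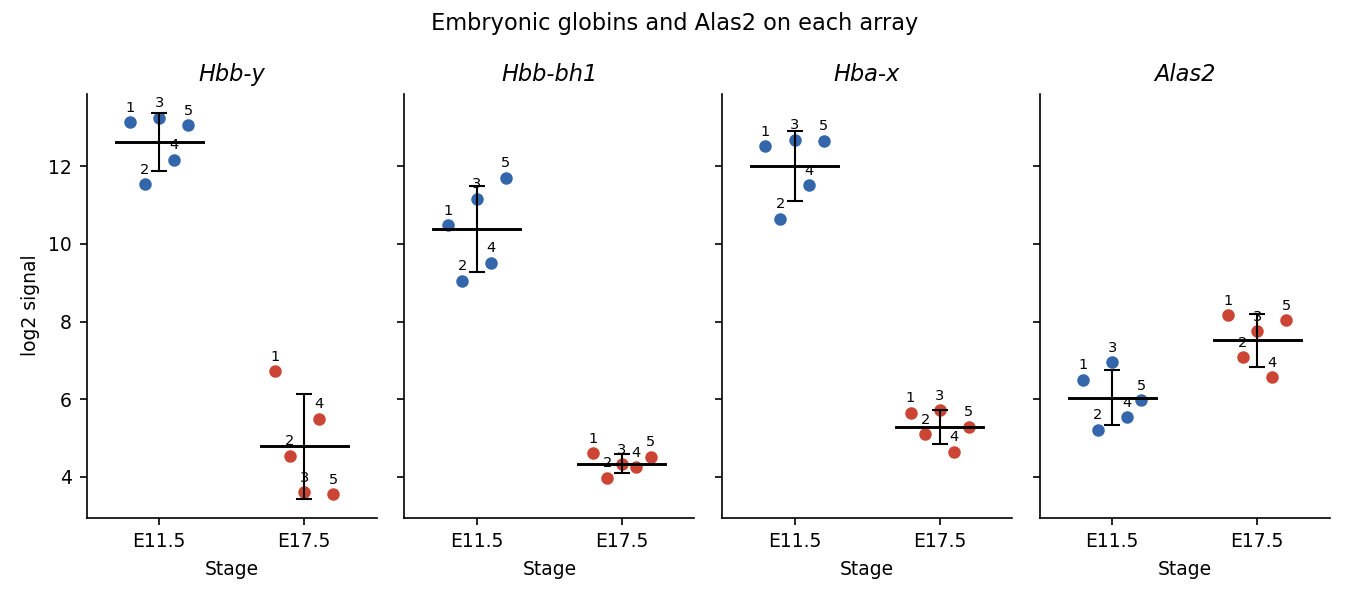
Log2 signal (y axis) of each gene on each E11.5 array (blue, 5) and each E17.5 array (red, 5), with the replicate number over each point, a bar at the mean and whiskers of 1 SD. The 3 embryonic globins lie at least 4.44 apart between stages, while the stages of *Alas2* overlap, and E11.5 replicates 2 and 4 are the lowest of their stage in every panel.

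At E11.5 the 4 genes varied more between arrays than most genes did, and in the same arrays. Replicate 2 was the lowest and replicate 4 the next lowest of the E11.5 arrays for all 4 of them. This order was read from their own values, so its share of 3.68% among all genes is a description and no test. The SD over the E11.5 arrays was 0.75 for *Hbb-y*, 0.90 for *Hba-x*, 1.10 for *Hbb-bh1* and 0.70 for *Alas2* (n = 5 arrays each), against a median of 0.16 over all genes. These SDs ranked above those of 99.4%, 99.7%, 99.9% and 99.2% of genes. From the lowest to the highest array, *Hbb-bh1* spanned 6.27-fold, *Hba-x* 4.08-fold, *Alas2* 3.33-fold and *Hbb-y* 3.29-fold. Without replicate 2 the SD was 0.50 for *Hbb-y*, 0.56 for *Hba-x*, 0.94 for *Hbb-bh1* and 0.62 for *Alas2*. For *Alas2* it was lower, at 0.56, without replicate 3.

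At E17.5 the members no longer shared an order. *Hbb-y* had the widest spread, an SD of 1.34 (n = 5), which ranked above 99.9% of genes, and spanned 8.96-fold from 3.56 on replicate 5 to 6.72 on replicate 1. Its replicate 4, at 5.50, was the next highest, while *Hba-x* was lowest on that array (4.65). *Hba-x* had an SD of 0.44 (n = 5), above 87.5% of genes. *Hbb-bh1* had an SD of 0.25 (n = 5), above 59.7% of genes and close to the median of 0.21 over all genes. *Alas2* kept an SD of 0.68 (n = 5), above 96.6% of genes. Its arrays ran 1, 5, 3, 2, 4 from high to low, an order read from its own values and shown by 1.00% of all genes. At these low signals a probe set can read background or related sequences. *Hbb-y* was read by a probe set of the kind marked _x, which can match other genes.

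The adult globins, which are not among the members, moved differently. A probe set listed for 4 adult beta-globin genes together, which names no single gene, stood at 8.45, 7.40, 8.39, 7.54 and 7.94 on E11.5 replicates 1 to 5. On E17.5 replicates 1 to 5 it stood at 14.09, 13.50, 13.65, 13.33 and 13.99. It was 54.5-fold higher at E17.5 (log2 difference 5.77, SE 0.23, adjusted p = 3.3e-10 from limma over all 21204 probe sets, a fit chosen after the values were seen), and its stages lay 4.88 apart. Every E17.5 array was above every E11.5 array, as for 32.3% of all genes. The embryonic beta-like genes and this adult set thus ran in opposite directions between the same samples.

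A probe set listed for both adult alpha-globin genes stood at 9.38, 7.49, 9.24, 7.56 and 8.33 on E11.5 replicates 1 to 5 and at 9.53, 8.89, 9.30, 8.88 and 9.52 on E17.5 replicates 1 to 5. The stages overlapped, and the log2 difference of 0.82 (SE 0.36) did not pass in that fit (adjusted p = 0.066 from limma). With the replicate number as a block it did (adjusted p = 0.016), and also without E11.5 replicate 1 (1.07) or replicate 3 (1.03). *Hba-a2*, named alone by another probe set, ranged from 12.23 to 12.83 over the E11.5 arrays and from 12.22 to 12.71 over the E17.5 arrays. Its difference of -0.17 did not pass (adjusted p = 0.32), whereas quantile-normalized values gave a call of lower (-0.61, adjusted p = 0.0008). The alpha probe sets did not vary alike: over the E11.5 arrays the shared set spanned 3.70-fold and that of *Hba-a2* 1.51-fold. The shared set is also of the kind marked _x. Which of them reads adult alpha-globin better was not tested.

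Both adult sets shared the E17.5 array order of *Alas2*. Their E17.5 arrays ran 1, 5, 3, 2, 4 from high to low, as in *Alas2*, and their E11.5 arrays had replicate 2 lowest and replicate 4 next lowest. The E17.5 order was also that of the epithelial tip markers *Nkx2-1* and *Id2* (2 of 12), of *Cygb* and of *Clpx*. The probe set of *Hba-a2* had neither order, and at E11.5 it was lowest on replicate 1.

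**Figure D2:**
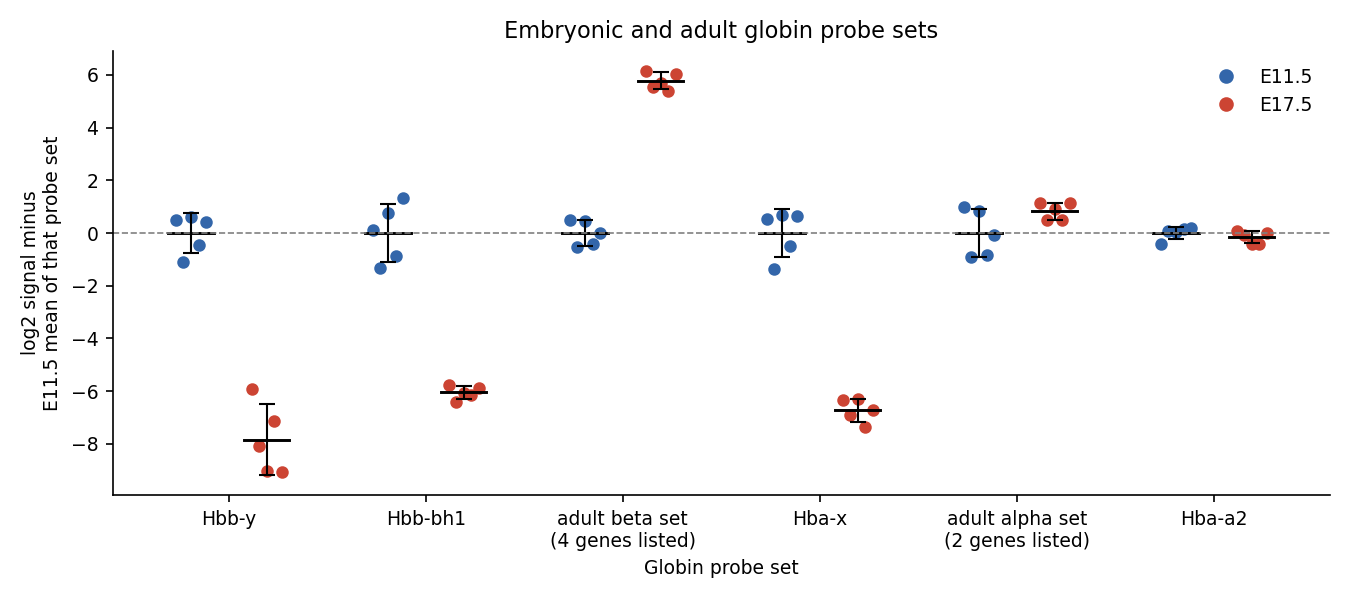
Log2 signal minus the E11.5 mean of the same probe set (y axis) for embryonic and adult globin probe sets (x axis), on each E11.5 array (blue, 5) and each E17.5 array (red, 5), with bars at the mean and whiskers of 1 SD. The 3 embryonic genes lie 6.04 to 7.84 lower at E17.5 and the adult beta set 5.77 higher, while the adult alpha probe sets overlap between stages.

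Of 12 other globin genes listed, 4 were measured singly, and those beside *Hba-a2* are not red cell globins. *Cygb*, which encodes cytoglobin of fibroblasts and other stromal cells, rose from 5.56 ± 0.44 (SD, n = 5) to 9.24 ± 0.45 (SD, n = 5), a log2 difference of 3.68 (adjusted p = 3.9e-08 from limma). *Mb*, the muscle oxygen store myoglobin, fell by 1.12 on the log2 scale (adjusted p = 9.9e-08). *Ngb*, neuroglobin of nerve cells, had a difference of 0.47 and did not pass (adjusted p = 0.053). It passed without E11.5 replicate 1, E17.5 replicate 3 or E17.5 replicate 5 (0.53 to 0.58), with array weights (0.46) and after quantile normalization (0.46).

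Most enzymes of heme synthesis that every cell uses were higher at E17.5. Of 7 measured beside *Alas2*, 6 were higher at E17.5 and 1 was lower in limma, against 36.9% of all genes higher and 31.5% lower, and 68.4% called in all. The median log2 difference was 2.16, against 0.03 over all genes tested. For each of the 7, the stages did not overlap. Among all genes this held for 32.3% in the higher direction and 26.3% in the lower. *Alas1*, the housekeeping form of the synthase, rose from 9.50 ± 0.32 (SD, n = 5) to 10.51 ± 0.13 (SD, n = 5), a difference of 1.01 (SE 0.15, adjusted p = 5.0e-05). After quantile normalization the difference of *Alas1* was only 0.42 (adjusted p = 0.024 from limma). Further down the pathway, *Alad*, which makes porphobilinogen, rose by 3.17 (adjusted p = 8.6e-09) and *Uros*, which closes the ring, by 2.16 (adjusted p = 1.6e-08). *Urod*, which removes carboxyl groups from the ring, was the 1 that fell, from 12.21 ± 0.09 to 11.66 ± 0.16 (SD, n = 5 each, adjusted p = 0.00022).

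The last enzymes act in mitochondria. *Cpox* rose by 2.62 and *Ppox* by 3.16 on the log2 scale, both oxidases of the ring (adjusted p = 1.0e-10 and adjusted p = 1.7e-10 from limma). *Fech*, ferrochelatase, which puts iron into the ring, rose by 1.50 (adjusted p = 1.5e-08). After quantile normalization the rises were 2.67 for *Alad*, 1.69 for *Uros*, 2.25 for *Cpox*, 2.72 for *Ppox* and 1.00 for *Fech*. *Urod* then differed by -1.05. The size of these differences thus depends on the scaling. The mean of the 7 genes was 8.89 to 9.15 on the E11.5 arrays and 10.81 to 10.96 on the E17.5 arrays. None of the 7 had the E11.5 order of the members, with replicate 2 lowest and replicate 4 next lowest.

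**Figure D3:**
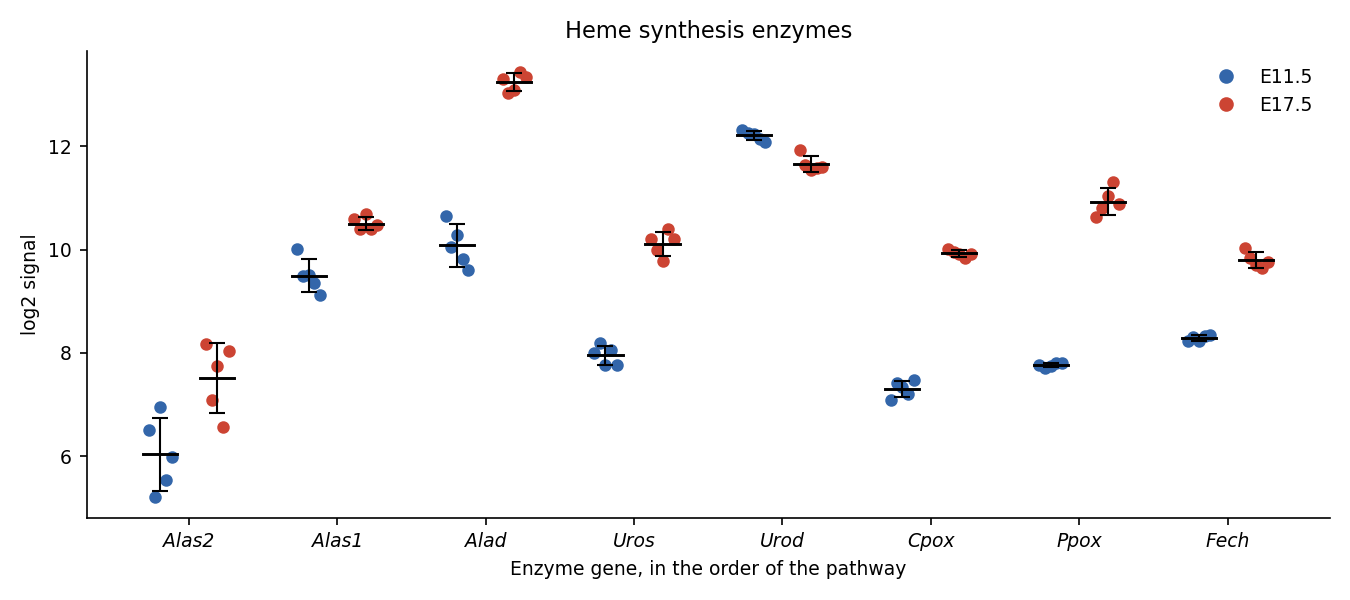
Log2 signal (y axis) of *Alas2* and of the other measured enzyme genes of heme synthesis (x axis), on each E11.5 array (blue, 5) and each E17.5 array (red, 5), with bars at the mean and whiskers of 1 SD. The stages overlap for *Alas2* alone, and *Urod* alone is lower at E17.5; levels of different genes rest on different probe sets and are not comparable.

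Transcription regulators known from red cells were mixed. Of 21 measured, 12 were higher and 3 lower at E17.5, with a median log2 difference of 1.64, beside 36.9% of all genes higher and 31.5% lower. After median centring 11 were higher and 5 lower, while the calls over all genes went from 6568 higher and 5609 lower to 5920 and 6576. *Gata1*, the defining factor of red cells, ranged from 4.15 to 4.81 over the E11.5 arrays and from 4.32 to 4.78 over the E17.5 arrays, with a difference of 0.03 (adjusted p = 0.86 from limma). *Klf1*, which drives the adult beta-globin gene, fell by 0.76 on the log2 scale (adjusted p = 0.0033). *Zfpm1*, a partner of GATA1, fell by 1.27 and *Sox6*, a repressor of *Hbb-y* in definitive red cells, by 2.42. The largest rises were those of *Foxo3* (3.99), *Lmo2* (3.59), *Gata2* (3.25) and *Runx1* (2.93), which other blood cells, endothelium or epithelium also express. On the same arrays the mean of 12 endothelial markers ranged from 5.89 to 6.96 over the E11.5 arrays and from 9.05 to 10.96 over the E17.5 arrays, and 10 of them were higher and 0 lower. Their 2 other members, *Ramp2* and *Egfl7*, did not pass. The part of endothelial RNA in these rises was not tested.

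Among proteins of the red cell and its membrane, 28 of 36 list genes were measured, 9 were higher and 9 lower, and the median log2 difference was -0.02. These shares are near those of all genes (36.9% higher and 31.5% lower). *Slc4a1*, the band 3 anion exchanger of the red cell membrane, ranged from 5.58 to 7.07 over the E11.5 arrays and from 5.72 to 6.66 over the E17.5 arrays, with a difference of -0.31 (adjusted p = 0.37 from limma). *Epor*, the erythropoietin receptor, had a difference of 0.12 (adjusted p = 0.64). *Hemgn*, a nuclear protein of blood cells, fell by 1.23 (adjusted p = 0.014 from limma). Its stages overlapped at low signals, from 3.56 to 5.81 at E11.5 and from 3.52 to 4.39 at E17.5. *Bpgm*, which makes the hemoglobin ligand bisphosphoglycerate, fell by 1.41. The largest changes of the list were those of *Aqp1*, a water channel that endothelium also carries, which rose by 7.28, *Cd24a*, a surface protein that epithelium also carries, which fell by 2.76, and the carbonic anhydrase *Car2*, which rose by 2.70.

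Genes of iron supply also went both ways. Of 22 measured genes of iron uptake and mitochondrial import, 10 were higher and 6 lower, beside 36.9% and 31.5% of all genes. After quantile normalization 8 were higher and 11 lower, while over all genes 5676 were then higher and 6949 lower. *Tfrc*, the transferrin receptor, had a difference of -0.04 (adjusted p = 0.83 from limma), and it was lower after quantile normalization (-0.63). *Slc25a37* (mitoferrin 1), which brings iron into the mitochondria of red cells, rose by 2.22 (adjusted p = 1.3e-09), and its partner *Abcb10* by 2.87. *Isca1* and *Nfs1*, which build iron-sulfur clusters, rose by 3.12 and 2.91. The 6 lower genes were *Abcb8* (-1.49), *Abcb6* (-1.28), *Slc11a2* (-0.91), *Glrx5* (-0.80), *Ireb2* (-0.29) and *Pgrmc1* (-0.29).

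Of 22 genes that degrade, carry or store heme and iron, 13 were higher and 3 lower, beside 36.9% of all genes higher and 31.5% lower, and their median log2 difference was 0.46. After quantile normalization 9 were higher and 5 lower, with the same shift over all genes. *Hmox1*, heme oxygenase 1, which breaks heme down, rose by 1.16 (adjusted p = 0.00014). *Hp*, haptoglobin, which binds free hemoglobin, rose by 5.45, and *Cd163*, the macrophage receptor for that complex, by 1.89. *Cp*, the iron oxidase ceruloplasmin, rose by 4.41. *Flvcr2* rose by 3.80 while its relative *Flvcr1*, a heme exporter, fell by 1.43, and *Lrp1*, a receptor for heme bound to hemopexin, fell by 1.66 and *Heph*, hephaestin, by 1.89. The mean of 12 macrophage and monocyte markers ranged from 5.51 to 6.41 over the E11.5 arrays and from 9.25 to 10.04 over the E17.5 arrays, and all 12 were higher. On E17.5 replicate 4 this list (9.25), *Hmox1* (9.36) and *Hp* (11.27) were all at their lowest, and the part of macrophages in these values was not tested. That array was also lowest in the means of the endothelial (9.05) and platelet markers (5.76), the regulators (8.18) and the red cell list (7.21). It was not lowest in those of the mesenchymal, mast cell and epithelial tip markers.

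**Figure D4:**
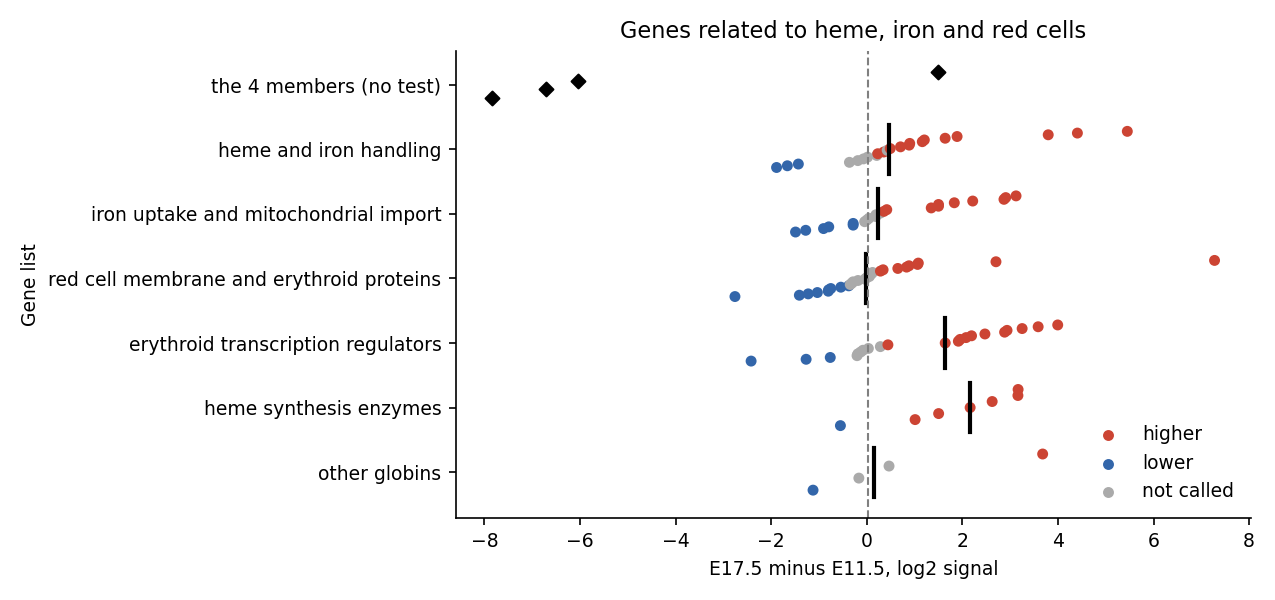
Difference of the mean log2 signals, E17.5 minus E11.5 (x axis), of each measured gene in 6 lists and of the 4 members (y axis), in red where called higher, in blue where called lower and in grey where not called (limma, adjusted p under 0.05), with a bar at each list's median and a dashed line at the median of all genes. The embryonic globins among the 4 members (black diamonds, no test) lie further left than every related gene, and the heme synthesis enzymes lie to the right except for *Urod*.

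The genes most like each member over the 10 arrays were found by the root mean square difference between profiles centred on their own mean. For *Hba-x* the nearest was *Hbb-bh1* (0.50 on the log2 scale), followed by *Cbx5* (0.67) and *Mdh1* (0.72), which are not globin genes. For *Hbb-bh1* the nearest were *Hba-x* (0.50), *Prtg* (0.66) and *Crabp2* (0.72). For *Hbb-y* they were *Eif3e* (0.95), *Hba-x* (1.08) and *Cbx5* (1.25). For *Alas2* they were *Trim13* (0.43), *Aldh3b1* (0.44) and *C130050O18Rik* (0.45). This measure is led by the size of the stage difference.

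With the profiles centred within each stage, among genes with at least a fixed share of the member's spread, red cell genes were among the nearest to *Hba-x*, *Hbb-bh1* and *Alas2* but not to *Hbb-y*. *Hemgn* (0.25), *Slc4a1* (0.28) and *Hbb-bh1* (0.37) were nearest to *Hba-x*, and *Hba-x* (0.37), *Hemgn* (0.37) and *Slc4a1* (0.39) to *Hbb-bh1*. *Slc4a1* (0.32) was also nearest to *Alas2*, before *Gm15408* (0.36) and *Hba-x* (0.37). For *Hbb-y*, whose E17.5 values spread most, they were *Slfn4* (0.59), *Tent5b* (0.61) and *B430319G15Rik* (0.62). *Slc4a1* had the E11.5 order 3, 1, 5, 4, 2 from high to low, as had *Hbb-y* and *Alas2*. The means of the red cell list and of the regulator list were also lowest on E11.5 replicate 2 and next lowest on replicate 4. In the red cell list, 5 of 28 genes had replicate 2 lowest and replicate 4 next lowest (*Slc4a1*, *Kel*, *Ermap*, *Hemgn* and *Slc14a1*). The same held for 3 of 12 endothelial markers (*Kdr*, *Cldn5* and *Ramp2*), 2 of 10 mesenchymal markers (*Twist1* and *Postn*) and 2 of 21 regulators (*Tal1* and *Lmo2*). It also held for 1 of 12 macrophage markers (*Lyz2*), 1 of 10 platelet markers (*Clec1b*) and 0 of 12 epithelial tip markers.

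In their means, lists of other cells shared part of this order at E11.5. Replicate 2 was also lowest in the mean of the endothelial markers (5.89), the macrophage markers (5.51) and the mesenchymal markers (6.88). On replicate 4 these means were 6.59, 6.14 and 7.96, and that array was not next lowest in any of these lists. For the endothelial markers the gap was very small, with replicate 3 next lowest at 6.57. The mean of 12 epithelial tip markers, among them *Epcam*, *Cdh1* and *Nkx2-1*, ranged from 11.27 to 11.55 over the E11.5 arrays and from 11.58 to 11.93 over the E17.5 arrays, and at E11.5 it was lowest on replicate 1. The mean of 10 platelet markers ranged from 5.37 to 5.93 over the E11.5 arrays and from 5.76 to 6.31 over the E17.5 arrays, and that of 8 mast cell markers from 4.82 to 5.20 and from 6.83 to 8.06. Their part in the globin and *Alas2* values was not tested.

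**Figure D5:**
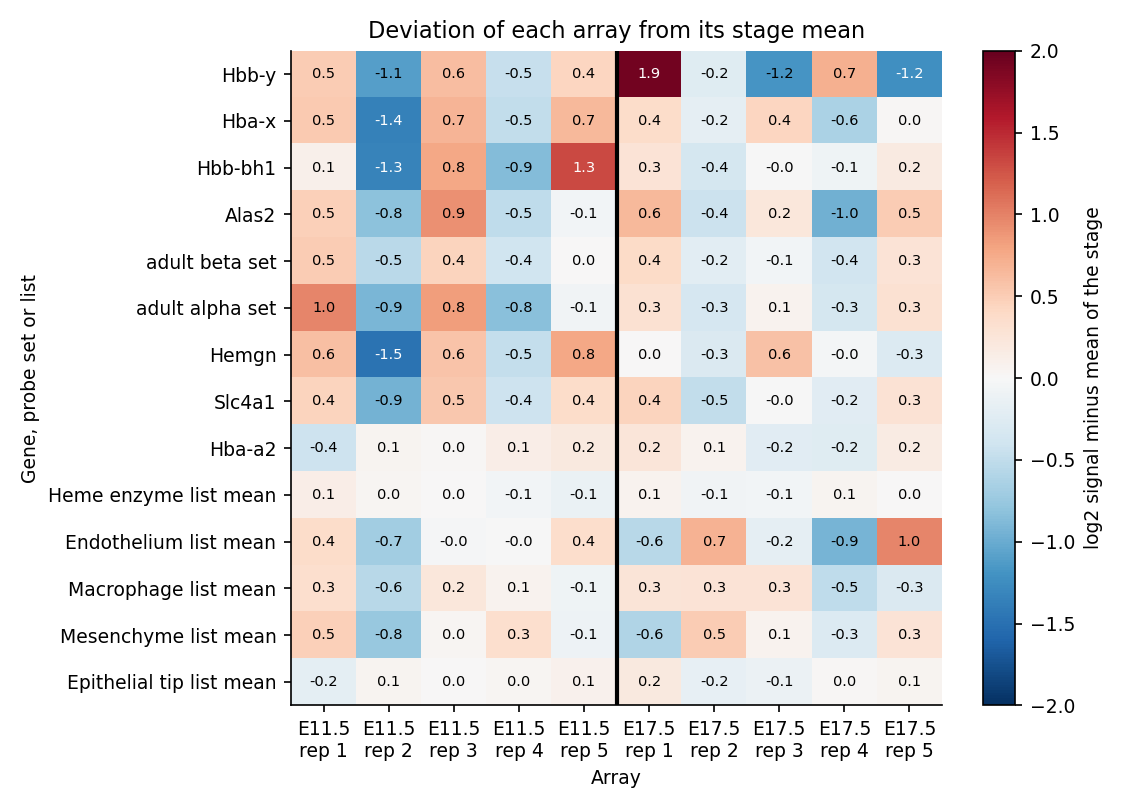
Log2 signal minus the mean of its stage (colour and printed value) for members, adult globin probe sets, red cell genes and the means of marker lists (rows) on each of the 10 arrays (columns). On E11.5 replicates 2 and 4 the members, the adult sets, *Hemgn* and *Slc4a1* are all below their stage mean. The endothelium, macrophage and mesenchyme means are also lowest on E11.5 replicate 2. The heme enzyme and epithelial tip means deviate little, but single genes in them vary more, such as *Alad* (9.60 to 10.65 at E11.5) and *Nkx2-1* (8.73 to 9.79).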

How the data were processed

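RNA was amplified and labelled with NuGEN kits, hybridised to Affymetrix mouse arrays and analysed by the authors with Bioconductor in R. The deposited values are log2 signals of 21204 probe sets, read as log2 from their range (2.472 to 15.03), and their background correction, normalization and selection were not found in the labels or the methods. Array medians were 7.01 to 7.23, and the number of arrays limits the precision.

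Names came from GEO's annotation of the platform, in which 17981 probe sets name 1 gene, 514 several and 2709 none. A gene with several was represented by its brightest. The difference E17.5 minus E11.5 was fitted without covariates (limma 3.58.1, lmFit and eBayes, under R 4.3.3), adjusted by Benjamini-Hochberg over 17813 genes and called at an adjusted p under 0.05. The test was checked on simulated data. The members, the lists and the rule for named genes (short lists whole, up to 4 largest changes of others, defining red cell genes, members of small counts, and the 3 genes nearest to each member) were chosen with earlier results of these data known. The adult globin probe sets and *Icam4*, *Ireb2*, *Hpx*, *Myb*, *Nkx2-1*, *Id2*, *Clpx*, *Abcb6*, *Abcb8*, *Slc11a2*, *Glrx5* and *Pgrmc1* were chosen after their values were seen. So were the array orders counted over all genes. Alternatives were other scalings, probe set choices, filters, weights, moderation, a 2-fold threshold, arithmetic means, a replicate block and leaving out each array. RefSeq tables of GRCm38.p6 gave promoters and names, and the Entrez identifiers of all 4 members matched. Figures used Python 3.11.15 and matplotlib 3.10.9.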

Additional observations from a re-analysis of the deposited data

Results flagged for a closer look

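Each gene of the lists was checked in each stage for an array whose gap to its nearest neighbour exceeds 0.71 of the range of the 5. This held in 11 of 216 cases, and chance gives about 11. No embryonic globin nor *Alas2* was among them. On E11.5 replicate 1, *Hba-a2* stood at a log2 signal of 12.23 (nearest neighbour 12.66) and *Ireb2* 12.26 (nearest 12.42). On E11.5 replicate 2, *Lmo2* was 5.57 (nearest 7.01), *Icam4* 5.88 (nearest 6.06) and *Cp* 3.80 (nearest 4.06). *Hmox1* was lowest on replicate 4 of both stages, at 8.89 (nearest 9.03) at E11.5 and 9.36 (nearest 10.26) at E17.5. On E17.5 replicate 4, *Hp* was 11.27 (nearest 12.28) and *Hpx* 7.01 (nearest 6.54). On E17.5 replicate 1, *Urod* was 11.94 (nearest 11.65) and *Myb* 10.37 (nearest 11.00).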

How the results depend on the processing

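The stage differences of the 4 members moved by less than their spread under every alternative run. The mean over probe sets could not move them, since each member has 1 probe set. Nor could the replicate block, since the stages are balanced. Without each array in turn they ran from -8.32 to -7.53 for *Hbb-y*, -7.06 to -6.55 for *Hba-x*, -6.38 to -5.71 for *Hbb-bh1* and 1.28 to 1.72 for *Alas2*. Without the suffixed probe sets, *Hba-x* alone is left, with its same probe set. Leaving out each E11.5 array gave an SD of 0.50 to 0.82 for *Hbb-y* and 0.56 to 0.99 for *Hba-x*, with the lowest value without replicate 2 in both. The median difference over all genes was 0.03 as deposited, -0.04 after quantile normalization and -0.10 after median centring.

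Counts moved as follows. After quantile normalization there were 2 higher and 2 lower other globins, 11 lower iron uptake genes and 5 lower heme and iron handling genes. After median centring, 5 transcription regulators were lower. With array weights 2 other globins were higher, and 1 to 2 were when single arrays were left out (2 without E11.5 replicate 1, E17.5 replicate 3 or E17.5 replicate 5, each through *Ngb*). Without dim genes, where fewer genes were tested, 0 other globins and 1 regulator were lower, and 5 red cell genes were higher and 3 lower. Without suffixed probe sets 6 regulators were higher, again among fewer genes. Against a 2-fold change, a stricter test, 0 other globins, 0 heme enzymes, 1 regulator, 1 red cell gene and 0 iron uptake genes were lower, and 2 red cell and 5 handling genes were higher. In the other cases the cause was not tested.

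The replicate number is shared between stages, but same-numbered arrays did not deviate together (correlations of -0.29 to 0.07 across genes). The labels do not say whether the number marks anything shared, and a shared batch was not tested. With the replicate block 6385 genes were called higher and 5349 lower, against 6568 and 5609 without it, and no list count moved by more than 1. The differences of the members were the same (-7.84 for *Hbb-y*), which the block could not change because each replicate number occurs once per stage. Among the genes and adult globin probe sets whose calls were compared between settings, that of the adult alpha-globin set alone changed (adjusted p = 0.016 from limma). Some genes named above, such as *Hemgn* and *Ramp2*, were not in that comparison. Detection calls were not used here, so dim signals such as those of the embryonic globins at E17.5 may lie at background.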
